A study of Mus musculus with 28 samples.

Results

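The genes described here were 10 genes linked to immunogenic cell death and heat shock, chosen by symbol out of 55341 measured genes, in 28 mouse mesothelioma tumors: Calr, Pdia3, Hmgb1, Anxa1, Hspa1a, Hspa1b, Hsp90aa1, Panx1, P2rx7 and Lrp1. All 10 were present in both count matrices and all 10 passed the filter on low counts in every fit. AB1-HA is a murine mesothelioma cell line that carries influenza hemagglutinin as a model antigen, and every tumor grew from these cells under the skin of the flank of a female BALB/c.AusBP mouse aged 8 to 10 weeks. The groups were PBS (n = 4), immune checkpoint blockade (ICB, n = 5; anti-CTLA-4 at 100 µg once and anti-PD-L1 at 100 µg 3 times), 5-FU (n = 5; 75 mg/kg into a vein), Cisplatin (n = 4; 6 mg/kg into the peritoneum), 5-FU+ICB (n = 5) and Cisplatin+ICB (n = 5). Each library was made from 1 whole tumor of 1 mouse, taken 7 days after treatment began, so that tumor, immune and stromal RNA were measured together, and a single time point was read.

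Immunogenic cell death is a form of cell death in which a dying tumor cell displays or releases molecules that draw in and activate antigen-presenting cells. Calreticulin moves to the cell surface as an "eat me" signal together with the disulfide isomerase encoded by Pdia3, and it is recognised by the scavenger receptor encoded by Lrp1. ATP leaves through channels such as pannexin-1 and is sensed by the receptor P2RX7, while HMGB1 and annexin A1 are released and bind Toll-like and formyl peptide receptors, and heat shock proteins chaperone peptides that antigen-presenting cells can take up. Many of these steps concern where a protein is and not how much of its RNA is made, and only RNA was measured here.

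Total counts per tumor ran from 23541733 to 33950805 (median 28797552), so that 3 counts, taken as the floor of detection, corresponded to 0.0822 to 0.159 CPM, the count scaled to a common library size. Levels below are CPM after TMM scaling, and they are compared between groups and not between genes. A gene was counted as differentially expressed (a DEG) when the edgeR quasi-likelihood p, adjusted by Benjamini-Hochberg across all genes tested, was under 0.05 and the log2 fold change was beyond 0.5 in either direction. Values written as a ± b with no further word are log2 fold changes with their standard error. The 5 comparisons with PBS share the same 4 PBS tumors. Markers of the mesothelial label were uneven: Pdpn was present at 58.6 to 240 CPM and Msln ran from 0.50 to 654 CPM, while Upk3b was at or under 3 counts in 28 of 28 tumors. Cisplatin+ICB tumor 1 stood apart from its group, with a summed level of 7 mesothelial markers of 905 CPM (232 to 326 in the other 4) and of 3 T cell markers of 7.53 CPM, and comparisons with the Cisplatin+ICB group are given with and without it. Markers of neighbouring tissue were high in single tumors. The sum of 3 skeletal muscle markers was 77.3 to 136 CPM in PBS tumors, 3534 in 5-FU+ICB tumor 5 (0.930 to 675 in the other 4), 2624 in ICB tumor 3 (0.640 to 180 in the other 4) and 717 to 1094 in 5-FU tumors 1, 3, 4 and 5 (5.32 in tumor 2). The sum of 2 keratinocyte markers was 420 CPM in ICB tumor 2 and at most 19.7 in the other 27. 5-FU+ICB tumor 5 also had the highest endothelial sum, at 589 CPM (next 294). Without 5-FU+ICB tumor 5 edgeR called 7 of 10 members against PBS (36.8% of all genes), the same 6 and Lrp1. Without ICB tumor 2 or 3 it called 4 of 10 (30.5% and 32.1%), with Hspa1a and Hsp90aa1 lost.

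**Figure D1:**
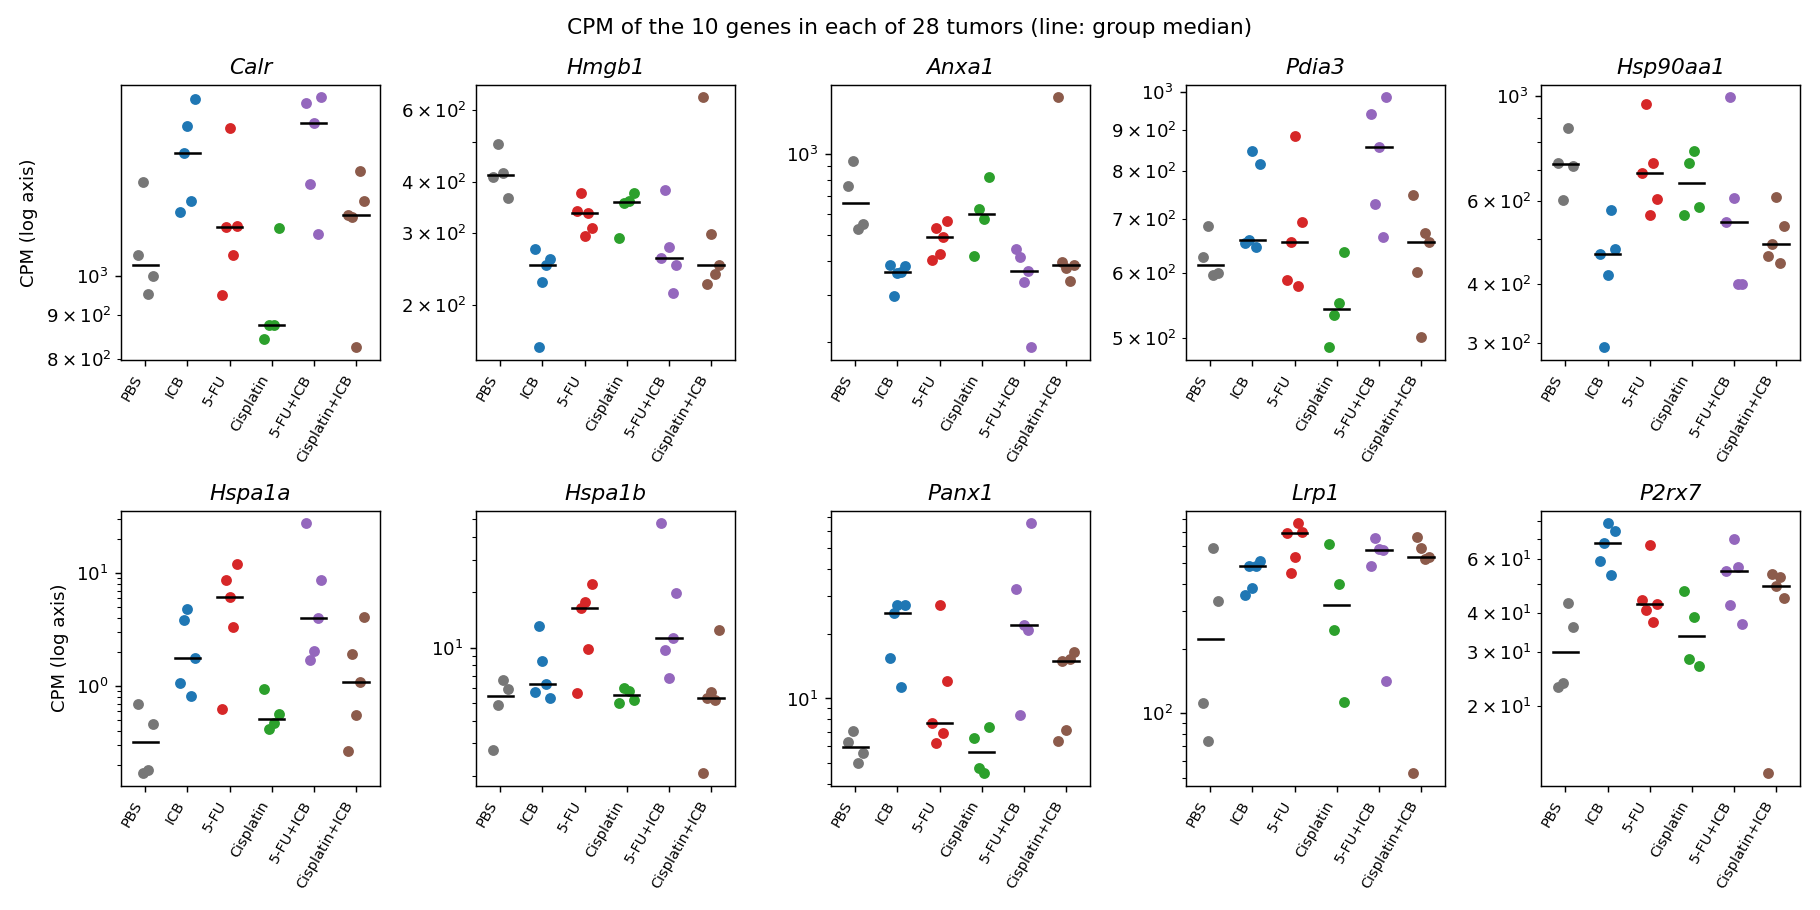
Level of each of the 10 genes in each of the 28 tumors (CPM, log axis) by treatment group; points are tumors and lines are group medians. Hspa1a spans 0.170 to 27.8 CPM, whereas Calr and Pdia3 span 1.97-fold and 2.02-fold over all 28 tumors.

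The members changed in both directions, and DEGs among them were found with ICB, 5-FU and 5-FU+ICB. Against PBS, 6 of 10 members were DEGs with ICB, where 37.8% of all genes tested were (6 of 10 by DESeq2, against 33.4%). Hspa1a, Panx1 and P2rx7 rose (3 of 10, against 19% of all genes) and Hmgb1, Anxa1 and Hsp90aa1 fell (3 of 10, against 18.8%). With 5-FU, 2 of 10 were DEGs against 23% of all genes, and both, Hspa1a and Hspa1b, rose (9.98% of all genes rose). DESeq2 called 4 of 10 there, against 24.9%, adding Lrp1 (1.29, adjusted p = 0.0227) and P2rx7 (0.64, adjusted p = 0.0279). With 5-FU+ICB, 6 of 10 were DEGs against 40.7% (6 of 10 by DESeq2, against 34.7%). Hspa1a, Hspa1b, Panx1 and P2rx7 rose (4 of 10, against 21.9%) and Hmgb1 and Anxa1 fell (2 of 10, against 18.7%). The share of members called was above that of all genes with ICB and 5-FU+ICB by both tools, while with 5-FU it was below that share by edgeR and above it by DESeq2. Without PBS tumor 3, edgeR called 5 of 10 with 5-FU, against 25.9%. It called 1 of 10 without PBS tumor 1, 2 or 4 or 5-FU tumor 2, 3 or 5, against 7.87% to 23.8%. With 10 members these shares were not tested. The tumors of the compared groups did not overlap in 6 of 10 members with ICB (36.4% of all genes), in 0 of 10 with 5-FU (24.8%) and in 4 of 10 with 5-FU+ICB (24.4%). With Cisplatin 0 of 10 members were DEGs and 0% of all genes were (0 of 10 by DESeq2, against 0.0114%, and 0 of 10 at an unadjusted p under 0.05, against 1.78%). With Cisplatin+ICB 0 of 10 were DEGs by edgeR against 6.1% of all genes (by DESeq2 2 of 10, Hspa1a and Panx1, against 10.1%, and 3 of 10 at an unadjusted p under 0.05, against 23.6%). The median log2 fold change of the members was 0.52 with ICB, 0.35 with 5-FU and 0.60 with 5-FU+ICB, where the medians of all genes were −0.03, −0.01 and −0.04. It was −0.08 with Cisplatin and 0.20 with Cisplatin+ICB (−0.01 and 0.03 over all genes).

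**Figure D2:**
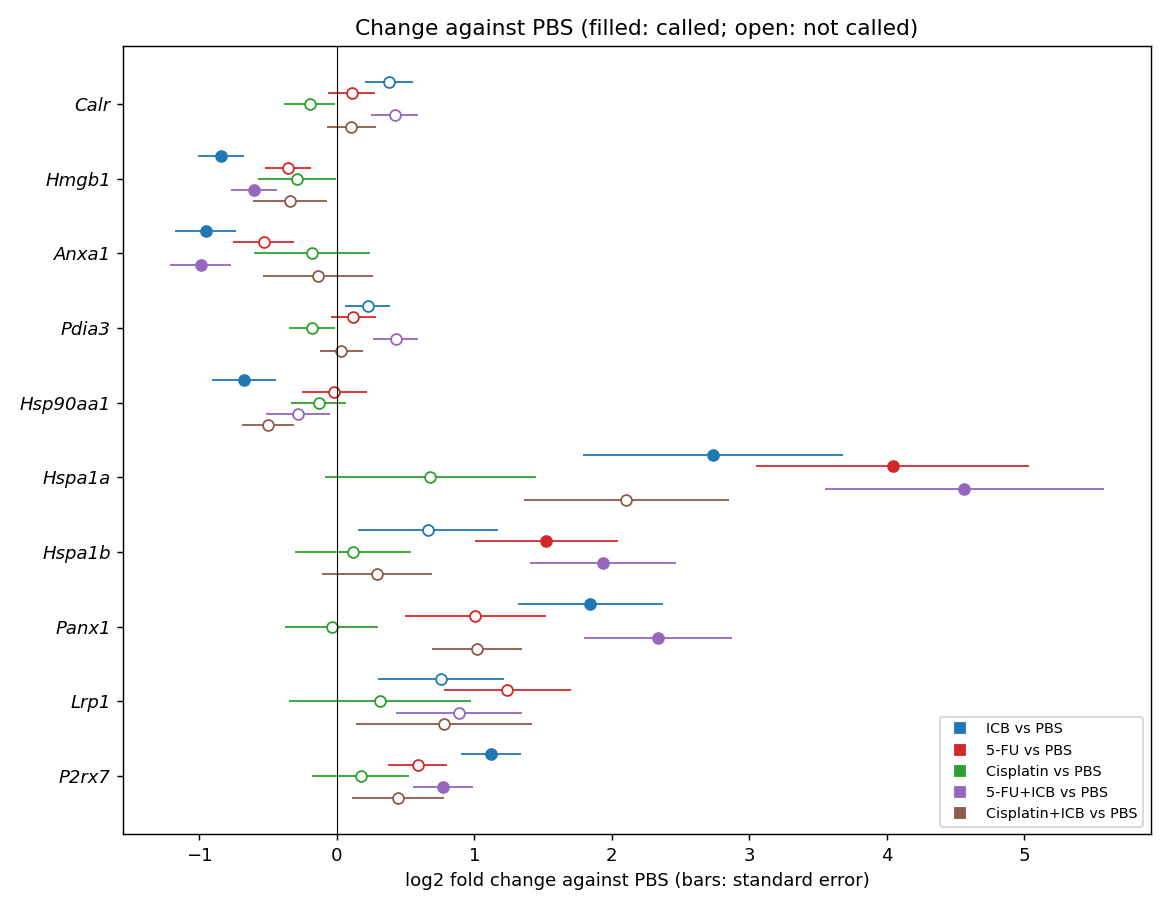
Log2 fold change against PBS of each member in the 5 treated groups, with bars of 1 standard error; filled points are DEGs and open points are not. Hspa1a lies farthest to the right, at 4.04 with 5-FU and 4.56 with 5-FU+ICB, and 3 of 10 members with ICB and 2 of 10 with 5-FU+ICB are filled points left of 0.

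Hspa1a and Hspa1b encode the stress-inducible HSP70 chaperones and lie next to each other on mouse chromosome 17 (GRCm38, minus strand; Hspa1a at chr17:34969190-34972156 and Hspa1b at chr17:34956436-34959238). Heat shock factor HSF1 binds repeated nGAAn units (heat shock elements) and switches on both genes in stressed cells. The proximal promoters are shown because both copies carry the same sequence: over the 300 bases from 250 before to 50 after the start, 296 of 300 positions were identical. The stretches from 150 to 51 bases before each start are given 5′ to 3′ on the minus strand, with a match to GAANNTTC (a pair of inverted heat shock units; a palindrome, so the same on both strands) in capitals. Sequences are from RefSeq (GRCm38.p6).
Hspa1a, chr17:34972207-34972306: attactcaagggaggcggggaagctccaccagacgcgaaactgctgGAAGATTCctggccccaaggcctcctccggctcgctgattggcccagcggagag
Hspa1b, chr17:34959289-34959388: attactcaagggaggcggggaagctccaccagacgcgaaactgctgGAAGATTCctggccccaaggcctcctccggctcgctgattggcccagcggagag
The search covered GAANNTTC and its other phase TTCNNGAA, and 15.1% of the 32851 promoters of that length held a match. A match is a description of the letters and not of binding. By gene, 4 of the 9 members with an entry held a match (17% of all 27025 genes): Hspa1a, Hspa1b, Panx1 and P2rx7. P2rx7 held it in 1 of 2 promoters, 28 bases after that start. The matches of Hspa1a and Hspa1b lie in the same copied sequence and are not separate findings. Hsp90aa1 had no entry and was not searched. A longer element, GAANNTTC followed at once by NNGAA (3 units, searched on both strands), was in 0 of the 9, in 4 of the 17 heat shock genes with an entry and in 0.603% of promoters.

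The level of Hspa1a was higher than PBS with ICB, 5-FU and 5-FU+ICB. In the 4 PBS tumors Hspa1a was at 0.689, 0.170, 0.181 and 0.465 CPM. In the 5 ICB tumors it was at 1.06, 3.88, 4.82, 0.822 and 1.78 CPM. With 5-FU it was at 0.630, 8.77, 6.10, 3.33 and 12.0 CPM, and only 5-FU tumor 1 lay inside the PBS range. With 5-FU+ICB it was at 27.8, 1.71, 2.07, 4.05 and 8.70 CPM, all above PBS. The log2 fold changes were 2.74 ± 0.95 (SE) with ICB (adjusted p = 0.0282), 4.04 ± 0.99 with 5-FU (adjusted p = 0.0105) and 4.56 ± 1.01 with 5-FU+ICB (adjusted p = 0.00256). In bulk tumor, fewer cells of a type and less RNA per cell cannot be told apart, and this holds for every level below. The lowest PBS tumors, at 0.170 and 0.181 CPM, sit near the floor of 3 counts, so the size of these folds is uncertain. The ICB call was lost when PBS tumor 2, 3 or 4 or ICB tumor 2 or 3 was left out (adjusted p up to 0.0812).

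Hspa1b differed from PBS in the same direction with smaller folds. It was at 2.76, 4.88, 6.69 and 5.98 CPM in PBS tumors and at 5.64, 16.4, 17.7, 9.84 and 22.1 CPM in 5-FU tumors, so again 5-FU tumor 1 was within the PBS range while the other 4 were above it. With 5-FU+ICB it was at 47.6, 9.64, 6.85, 11.2 and 19.8 CPM, all above PBS. Hspa1b rose by 1.52 ± 0.52 on the log2 scale with 5-FU (adjusted p = 0.0394) and by 1.94 ± 0.53 with 5-FU+ICB (adjusted p = 0.00779). With ICB the difference was 0.66 ± 0.51 (95% interval −0.33 to 1.66) and did not pass the test (adjusted p = 0.299). The 5-FU call for Hspa1b held in 3 of 9 fits that left out 1 tumor (without PBS tumor 3 or 5-FU tumor 1 or 4) and was lost in the others (adjusted p up to 0.122). It was also lost with no filter, with the replicate block and with all 28 tumors in 1 fit (adjusted p up to 0.0946). Without 5-FU+ICB tumor 1 the 5-FU+ICB calls held for both genes, at log2 fold changes of 3.49 (Hspa1a) and 1.28 (Hspa1b).

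The split between the copies is uncertain, since 63.8% of the 31-base stretches of the Hspa1a transcripts also occur in Hspa1b and 67.7% of those of Hspa1b in Hspa1a. Summing the copies avoids that split. The summed level was 3.45 to 6.87 CPM in PBS tumors, 6.81 to 16.9 with ICB, and 6.27, 25.2, 23.8, 13.2 and 34.2 with 5-FU. With 5-FU+ICB it was 75.3, 11.3, 8.92, 15.3 and 28.5 CPM, above all PBS tumors, and with Cisplatin it was 5.75 to 6.44 CPM, within the PBS range. The sum rose with 5-FU (log2 fold change 1.94 ± 0.59, adjusted p = 0.0252) and with 5-FU+ICB (2.38 ± 0.60, adjusted p = 0.00510). With ICB it was not a DEG (0.95 ± 0.57, adjusted p = 0.186), so the ICB call for Hspa1a rests on the separation of the copies.

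**Figure D3:**
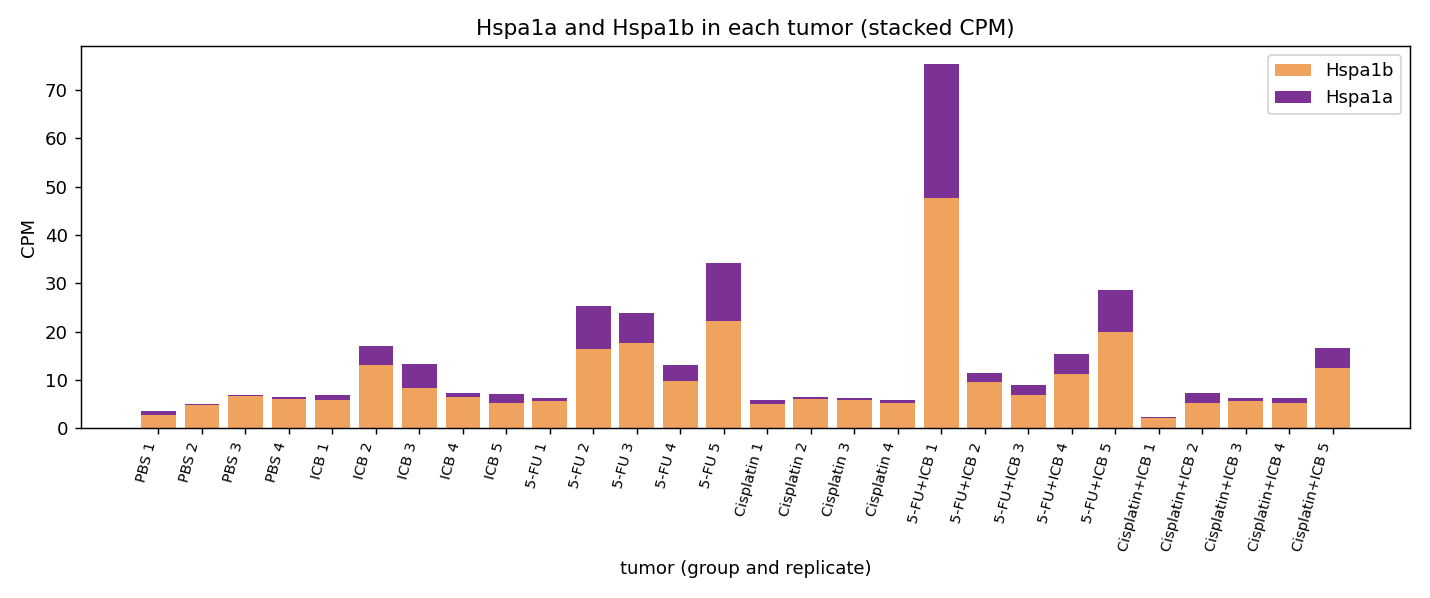
CPM of Hspa1b and Hspa1a stacked in 1 bar per tumor (linear axis from 0), with tumors ordered by group. 4 of 5 5-FU tumors and 5 of 5 5-FU+ICB tumors lie above the highest PBS sum of 6.87 CPM, and 5-FU tumor 1 does not.

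In the 5-FU group Hspa1a and Hspa1b were high in the tumors in which 15 immediate-early genes, such as transcription factors that respond to stimuli within minutes, were high. The summed level of those 15 genes was 513 to 782 CPM in PBS tumors and 555, 3842, 1933, 1394 and 3530 CPM in 5-FU tumors 1 to 5. 5-FU tumor 1 had the lowest value for these genes and for both Hspa1 copies. With 5-FU+ICB the sum was 2127 CPM in tumor 1, which also had the highest Hspa1a and Hspa1b, and 677 to 834 in the other 4. In the immediate-early list 5 of 15 genes rose and 0 fell with ICB, 10 rose and 0 fell with 5-FU, and 7 rose and 0 fell with 5-FU+ICB (median log2 fold changes 0.66, 1.71 and 1.06), where 19%, 9.98% and 21.9% of all genes rose. Fosb, a component of the AP-1 transcription factor, was at 5.05 to 16.0 CPM in PBS tumors and at 21.8, 1261, 586, 433 and 1237 CPM in 5-FU tumors, and it rose by 6.27 ± 1.33 on the log2 scale (adjusted p = 0.00608). The skeletal muscle sum was 913, 5.32, 1094, 717 and 954 CPM in 5-FU tumors 1 to 5. The part of the immediate-early response and of muscle tissue in the Hspa1 result was not tested.

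**Figure D4:**
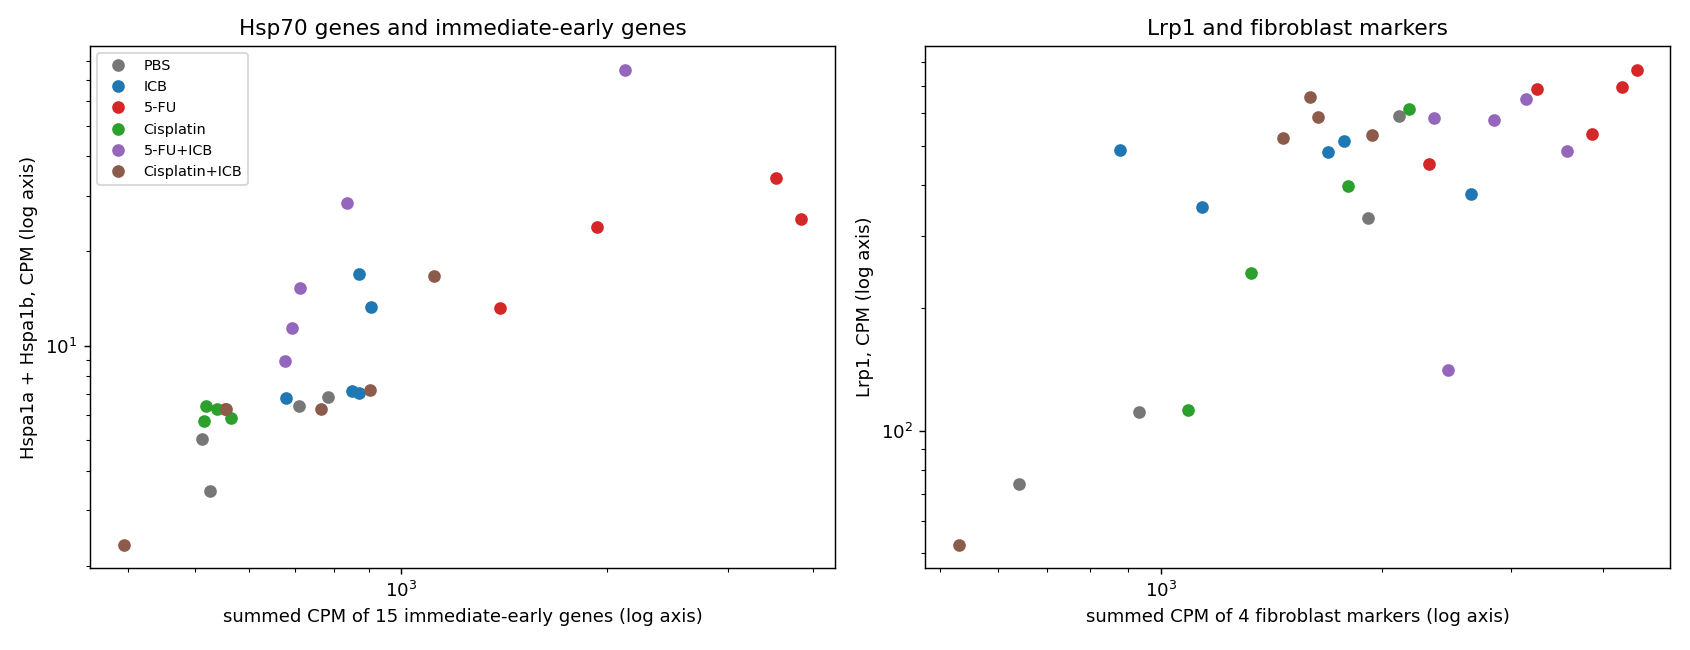
Left, summed CPM of Hspa1a and Hspa1b against summed CPM of 15 immediate-early genes; right, Lrp1 CPM against summed CPM of 4 fibroblast markers; all axes are log axes and each point is a tumor. 5-FU tumors 2 to 5 and 5-FU+ICB tumor 1 hold the highest immediate-early sums, from 1394 to 3842 CPM, and the lowest Lrp1 tumor, at 52.6 CPM, has the lowest fibroblast sum, at 531 CPM.

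Hsp90aa1 encodes the inducible HSP90-alpha chaperone (chr12:110690605-110702728, minus strand), and its RNA was lower than PBS with ICB. It was at 724, 605, 856 and 713 CPM in PBS tumors and at 465, 294, 418, 575 and 475 CPM in ICB tumors, so the ICB tumors were all below PBS. It fell by 0.67 ± 0.23 on the log2 scale with ICB (adjusted p = 0.0276). 5-FU tumors were at 688, 964, 561, 724 and 608 CPM, with tumor 2 above and tumor 3 below the PBS range. The difference was −0.02 ± 0.23 with 5-FU (95% interval −0.47 to 0.44, adjusted p = 0.964) and with 5-FU+ICB −0.28 ± 0.23 (adjusted p = 0.331). The ICB call held in 5 of 9 fits that left out 1 tumor and was lost without PBS tumor 1 or 3 or ICB tumor 2 or 3 (adjusted p up to 0.0832). It was also lost with no filter (−0.59, adjusted p = 0.104). ICB tumor 2, at 294 CPM, had the lowest Hsp90aa1 of its group, and it was the tumor with high keratinocyte markers. In ICB tumors the mesothelial sum was lower than in PBS tumors and the leukocyte marker Ptprc was higher, with values given below. Their part in the Hsp90aa1 result was not tested. Its counts are uncertain, since 46.7% of its 31-base stretches also occur in the transcript named Gm12346.

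Calr and Pdia3, the surface-exposed chaperone pair (chr8:84841850-84846934 and chr2:121413775-121438687), differed little between groups, and neither was a DEG in any comparison by edgeR with the standard filter and all tumors, nor by DESeq2. Calr was at 1059, 1291, 953 and 1001 CPM in PBS tumors, at 1189, 1395, 1501, 1228 and 1615 CPM with ICB and at 1598, 1285, 1515, 1121 and 1622 CPM with 5-FU+ICB. The ranges overlap at their edges, with means of 1076 ± 150 (SD, n = 4), 1386 ± 180 (n = 5) and 1428 ± 217 (n = 5) CPM. The log2 fold changes were 0.38 ± 0.17 with ICB (adjusted p = 0.0843), 0.42 ± 0.17 with 5-FU+ICB (adjusted p = 0.0544) and 0.11 ± 0.17 with 5-FU (95% interval −0.23 to 0.44). Pdia3 was at 596 to 685 CPM in PBS tumors and 664 to 985 with 5-FU+ICB. Its difference of 0.43 ± 0.16 there had an adjusted p of 0.0393 but was smaller than the fold threshold. Both genes lay close enough to the thresholds for other choices to call them. Calr passed without PBS tumor 2, with ICB (0.51, adjusted p = 0.0347) and with 5-FU+ICB (0.55, adjusted p = 0.0247). With at least 10 counts required in every tumor, Calr (0.50, adjusted p = 0.0262) and Pdia3 (0.51, adjusted p = 0.0176) passed with 5-FU+ICB, and Pdia3 also with no filter (0.51, adjusted p = 0.0478). The highest and lowest tumors of all 28 differed 1.97-fold in Calr and 2.02-fold in Pdia3, against 164-fold in Hspa1a.

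Hmgb1 encodes a chromatin protein that acts as an alarm signal outside the cell (chr5:149046702-149184489, minus strand), and its RNA was lower than PBS with ICB and with 5-FU+ICB. It was at 413, 496, 420 and 366 CPM in PBS tumors and at 275, 158, 228, 252 and 259 CPM in ICB tumors, with no overlap. Hmgb1 fell by 0.84 ± 0.17 on the log2 scale with ICB (adjusted p = 0.00127) and by 0.60 ± 0.17 with 5-FU+ICB (adjusted p = 0.00842), where tumor 2, at 384 CPM, overlapped with PBS. With 5-FU it was at 339, 377, 296, 337 and 309 CPM, and the difference was −0.35 ± 0.17 (adjusted p = 0.120). The 5-FU+ICB call was lost without PBS tumor 2, when the log2 fold change was −0.49. Of its 31-base stretches, 22.3% also occur in Gm21596.

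Anxa1 encodes annexin A1, a ligand of formyl peptide receptors (chr19:20373428-20390944, minus strand), and its RNA was lower than PBS in the same comparisons. It was at 764, 939, 526 and 549 CPM in PBS tumors, at 386, 296, 361, 365 and 382 CPM with ICB and at 442, 414, 336, 366 and 191 CPM with 5-FU+ICB, so neither group overlapped with PBS. It fell by 0.95 ± 0.22 on the log2 scale with ICB (adjusted p = 0.00321) and by 0.99 ± 0.22 with 5-FU+ICB (adjusted p = 0.00267). With 5-FU it was at 405, 532, 425, 493 and 564 CPM and overlapped with PBS (−0.53 ± 0.22, adjusted p = 0.0825). The summed level of 7 mesothelial markers, most of it Msln and Pdpn, was 334 to 479 CPM in PBS, 147 to 299 with ICB, 182 to 303 with 5-FU+ICB and 174 to 280 with 5-FU. Single markers did not all share that direction. Of the 5 tested, 1 rose and 0 fell with ICB. With 5-FU+ICB 3 rose, Krt19 (5.74 ± 1.52) and Pdpn (0.61 ± 0.23) among them, and Msln alone fell (−2.28 ± 0.77). Krt19 was at 0.190 ± 0.0941 CPM (SD) in PBS tumors, near the floor of 3 counts, so the size of its fold is uncertain. With 5-FU+ICB it was at 10.5 ± 21.8 CPM (SD), an SD above the mean, so its rise was uneven between tumors. Over all tumors its median was 0.343 CPM and its highest level 48.9 CPM. ICB tumor 2, with high keratinocyte markers, was the lowest of its group in both genes, and without it Hmgb1 (−0.68) and Anxa1 (−0.85) were still DEGs. 5-FU+ICB tumor 5, with high muscle markers, had the lowest Anxa1 of its group, and without it Anxa1 was still a DEG (−0.84). The part of these markers in the Hmgb1 and Anxa1 results was not tested.

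Panx1 encodes the ATP-release channel pannexin-1 (chr9:15002128-15045478, minus strand), and its RNA was higher than PBS with ICB and 5-FU+ICB. Panx1 was at 6.29, 7.05, 5.02 and 5.55 CPM in PBS tumors, at 15.4, 25.1, 27.3, 11.3 and 27.2 CPM with ICB and at 32.2, 8.37, 22.0, 20.9 and 65.4 CPM with 5-FU+ICB. Both treated groups lay above all PBS tumors. It rose by 1.84 ± 0.53 on the log2 scale with ICB (adjusted p = 0.0105) and by 2.34 ± 0.54 with 5-FU+ICB (adjusted p = 0.00305). Without 5-FU+ICB tumor 5 that rise was 1.82 (adjusted p = 0.00770). With 5-FU it was at 7.70, 6.22, 27.1, 6.87 and 12.1 CPM, a difference of 1.01 ± 0.51 that did not pass the test (adjusted p = 0.147) and was 0.46 without tumor 3. Its promoter is shown because it holds matches to the same motif at 36 bases before and 10 bases after the start. The 60 bases before the start are given 5′ to 3′ on the minus strand with the match in capitals, and TTCCGGAA also reads GGAA, the core of ETS-family sites, on both strands.
Panx1, chr9:15045479-15045538: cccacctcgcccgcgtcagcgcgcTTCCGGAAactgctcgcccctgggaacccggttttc

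P2rx7 encodes the ATP-gated channel P2RX7, found on macrophages and T cells (chr5:122643911-122691432, plus strand). P2rx7 was at 23.0, 23.7, 43.2 and 36.1 CPM in PBS tumors and at 59.2, 67.8, 78.7, 53.2 and 73.9 CPM with ICB, with no overlap. With 5-FU+ICB it was at 55.1, 42.7, 69.8, 56.7 and 36.9 CPM, and tumors 2 and 5 overlapped with PBS. It rose by 1.12 ± 0.22 on the log2 scale with ICB (adjusted p = 0.00118) and by 0.77 ± 0.22 with 5-FU+ICB (adjusted p = 0.00912). With 5-FU it was 0.59 ± 0.22 (adjusted p = 0.0525), which passed by DESeq2 (0.64, adjusted p = 0.0279) and, by edgeR, with DESeq2 size factors, with at least 10 counts in every tumor and with the replicate block. The leukocyte marker Ptprc was higher in the same groups, at 75.0 to 105 CPM in PBS tumors, 245 to 443 with ICB and 105 to 723 with 5-FU+ICB. 5-FU+ICB tumors 5 and 2 had the highest and lowest Ptprc of their group and also the highest and lowest Panx1, but P2rx7 was lowest in tumor 5, at 36.9 CPM. 5-FU tumor 3 had the highest Ptprc, Panx1 and P2rx7 of the 5-FU group. All 3 T cell and all 5 macrophage markers rose with ICB, and 3 of 3 and 3 of 5 rose with 5-FU+ICB. The summed T cell markers were at 14.3 to 19.1 CPM in PBS tumors, 95.4 to 335 with ICB and 26.3 to 590 with 5-FU+ICB, and the summed macrophage markers at 1095 to 1495, 2169 to 5969 and 1153 to 4915 CPM. Their part in these results was not tested.

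Lrp1 encodes the scavenger receptor LRP1 (chr10:127538161-127621148, minus strand), and it was not a DEG in any comparison by edgeR with the standard filter, no block and all tumors. Lrp1 was at 111, 73.9, 590 and 332 CPM in PBS tumors, and that wide PBS spread covered most of the treated tumors. It was at 354 to 514 CPM with ICB, 450 to 767 with 5-FU, and 486, 651, 585, 576 and 141 with 5-FU+ICB. The log2 fold changes were 0.76 ± 0.46 with ICB (adjusted p = 0.187), 1.24 ± 0.46 with 5-FU (adjusted p = 0.0559) and 0.89 ± 0.46 with 5-FU+ICB (adjusted p = 0.120). The 5-FU difference passed by DESeq2 (1.29, adjusted p = 0.0227) and, by edgeR, with at least 10 counts in every tumor and with the replicate block. Without PBS tumor 3 these were 1.39, 1.87 and 1.52 and all 3 passed the test (adjusted p = 0.0212, 0.00776 and 0.0134). Without PBS tumor 2 the ICB and 5-FU+ICB values were 0.45 and 0.58. Without 5-FU+ICB tumor 5, the lowest of its group, the 5-FU+ICB difference was 1.13 and passed (adjusted p = 0.0374). Fibroblast markers, of which 3 of 4 rose with 5-FU, were uneven in the same PBS tumors, with a summed level of 4 genes of 933, 641, 2111 and 1914 CPM, and were at 2314 to 4445 CPM with 5-FU. Their part in the Lrp1 levels was not tested.

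Cisplatin alone gave no DEG among the members. Its 4 tumors were at 0.937, 0.419, 0.470 and 0.563 CPM for Hspa1a, 4.97 to 6.02 for Hspa1b, 4.49 to 7.40 for Panx1 and 27.0 to 47.2 for P2rx7, all overlapping with PBS. They were at 291 to 377 CPM for Hmgb1, 419 to 825 for Anxa1, 560 to 765 for Hsp90aa1, 113 to 614 for Lrp1, 845 to 1141 for Calr and 487 to 638 for Pdia3. The log2 fold changes ran from −0.29 ± 0.29 for Hmgb1 (95% interval −0.85 to 0.27) to 0.68 ± 0.77 for Hspa1a (−0.82 to 2.18), each with an adjusted p of 1.00. The summed Hspa1a and Hspa1b difference was 0.16 ± 0.44. The Hmgb1 interval includes the ICB value of −0.84, and the Hspa1a interval does not reach the 5-FU value of 4.04.

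With Cisplatin+ICB, Hspa1a was at 0.265, 1.95, 0.560, 1.08 and 4.12 CPM and Panx1 at 6.31 to 16.4 CPM. The Cisplatin+ICB values depended on tumor 1, whose levels of 644 CPM for Hmgb1 and 1626 CPM for Anxa1 were the highest of all 28 tumors and whose levels of 52.6 CPM for Lrp1 and 12.0 CPM for P2rx7 were the lowest. With it, the differences were 2.11 ± 0.74 for Hspa1a (adjusted p = 0.0944), 1.02 ± 0.33 for Panx1 (adjusted p = 0.0685), −0.34 ± 0.27 for Hmgb1 and −0.14 ± 0.40 for Anxa1. Without it, 5 of 10 members were DEGs: Hspa1a (2.44, adjusted p = 0.0137), Panx1 (1.24, adjusted p = 0.00806), P2rx7 (0.77, adjusted p = 0.00771), Hmgb1 (−0.68, adjusted p = 0.00626) and Anxa1 (−0.83, adjusted p = 0.00993). Over all genes the count of DEGs went from 1087 to 6277 of 17772, so 5 of 10 members stand against 35.3% of all genes. That count also depended on the PBS tumors and was 0 without PBS tumor 1, 3 or 4. Leaving out Cisplatin+ICB tumor 5, which had the highest Hspa1a of its group, lowered the Hspa1a difference to 1.39 (adjusted p = 0.282).

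The design also asks whether chemotherapy and ICB together differ from each alone. Against ICB, 5-FU+ICB had 0 member DEGs (0.229% of all genes), with 2 of 10 at an unadjusted p under 0.05 (10.9% of all genes) and 0 by DESeq2 (1.68%). The differences were 1.27 ± 0.48 for Hspa1b (95% interval 0.34 to 2.21, adjusted p = 0.319), 1.83 ± 0.80 for Hspa1a (adjusted p = 0.412) and 1.43 ± 0.53 for their sum (adjusted p = 0.319). Without 5-FU+ICB tumor 1 they were 0.61 for Hspa1b (adjusted p = 0.681) and 0.75 for Hspa1a (adjusted p = 0.802). Against 5-FU, 5-FU+ICB also had 0 member DEGs (0.0112% of all genes), with 2 at an unadjusted p under 0.05 (16.6%) and 0 by DESeq2 (2.97%). Panx1 differed there by 1.33 ± 0.48 (adjusted p = 0.199), and it was a DEG without 5-FU+ICB tumor 2 (1.57, adjusted p = 0.0331) or without 5-FU tumor 3 (1.88, adjusted p = 0.0430), when 1948 of 17842 and 640 of 17854 genes were DEGs. Without 5-FU+ICB tumor 5 it was 0.81 (adjusted p = 0.612). Anxa1 differed by −0.46 ± 0.21 (adjusted p = 0.285).

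The interaction asks whether the 5-FU difference changed with ICB. In that test 0 members passed by edgeR (0.0893% of all genes), 2 had an unadjusted p under 0.05 (23.9%) and 1 passed by DESeq2 (9.57%). That 1 was P2rx7, with an interaction of −0.94 ± 0.30 (adjusted p = 0.0799 by edgeR and 0.0332 by DESeq2). Its difference from PBS was 1.12 with ICB, 0.59 with 5-FU and 0.77 with both, so the combined value was below the sum of the single ones. The Hmgb1 interaction was 0.59 ± 0.23 (adjusted p = 0.127).

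Cisplatin+ICB had 0 member DEGs against ICB (0% of all genes), with 2 at an unadjusted p under 0.05 (15.9%) and 0 by DESeq2 (0.26%). Panx1 differed by −0.82 ± 0.30 (adjusted p = 0.291). Without Cisplatin+ICB tumor 1 there were also 0, with Panx1 at −0.63 (adjusted p = 0.543). Against Cisplatin it also had 0 (0%), with 1 unadjusted (14.2%) and 1 by DESeq2 (4.2%). That count rests on tumor 1: without it Panx1 was a DEG (1.27, adjusted p = 0.0210), as were 2114 of 17772 genes. The interaction gave 0 (0%), with 0 unadjusted (7.14%) and 0 by DESeq2 (0.00285%), and also 0 by edgeR without tumor 1.

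Between the drugs, 5-FU differed from Cisplatin in 0 members (0.362% of all genes), with 3 at an unadjusted p under 0.05 (15.5%) and 1 by DESeq2 (3.67%). The largest of the 10 differences was in Hspa1a, at 3.35 ± 0.91 (adjusted p = 0.0955). Hspa1b differed by 1.38 ± 0.50 (adjusted p = 0.190) and the sum of the copies by 1.75 ± 0.57 (adjusted p = 0.150). 5-FU+ICB against Cisplatin+ICB gave 0 member DEGs (0.297% of all genes), with 5 unadjusted (25.7%) and 3 by DESeq2 (8.32%). The differences were 2.46 ± 0.79 for Hspa1a (adjusted p = 0.0848), 1.62 ± 0.47 for Hspa1b (adjusted p = 0.0714) and 1.31 ± 0.44 for Panx1 (adjusted p = 0.0905). Without Cisplatin+ICB tumor 1, 0 passed (adjusted p = 0.185 for Hspa1a, 0.163 for Hspa1b and 0.203 for Panx1). All 3 passed without 5-FU+ICB tumor 2 (2146 of 18498 genes) and both Hspa1 genes without Cisplatin+ICB tumor 5 (1128 of 18484 genes). Other tumors moved the values down: without 5-FU+ICB tumor 1 Hspa1a was 1.36 (adjusted p = 0.300) and Hspa1b 0.94 (adjusted p = 0.229), and without 5-FU+ICB tumor 5 Panx1 was 0.79 (adjusted p = 0.320). The drugs were given by different routes, and drug and route cannot be told apart.

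In the order of the 6 group means of each gene, few neighbours were apart by more than the larger of their SDs. P2rx7 with ICB (66.6 ± 10.4 CPM, SD, n = 5) was above 5-FU+ICB (52.2 ± 12.9, n = 5), Panx1 with ICB (21.3 ± 7.41, n = 5) was above Cisplatin+ICB (12.0 ± 4.88, n = 5), and Calr with ICB was above 5-FU (1159 ± 204, n = 5). Hspa1b with 5-FU (14.3 ± 6.56, n = 5) was above ICB (7.78 ± 3.18, n = 5), and Anxa1 with 5-FU (484 ± 68.2, n = 5) was above ICB (358 ± 36.2, n = 5). PBS was above Cisplatin in Hmgb1 (424 ± 53.9 and 346 ± 37.6, n = 4 each) and in Pdia3 (628 ± 40.8 and 552 ± 63.1). For Hspa1a, Hsp90aa1, Lrp1 and the Hspa1 sum no neighbours differed beyond their spread.

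4 related lists set the members in their pathways. In the list of 22 other heat shock genes, cochaperones and chaperones of the HSF1 response, 0 rose and 7 fell with ICB, 1 rose and 3 fell with 5-FU and 2 rose and 7 fell with 5-FU+ICB (median log2 fold changes −0.41, −0.06 and −0.25). Of all genes tested, 18.8%, 13% and 18.7% fell in these comparisons. The HSP90 cochaperone genes Stip1 and Fkbp4 fell with ICB, by 0.94 ± 0.21 (adjusted p = 0.00223) and 1.20 ± 0.25 (adjusted p = 0.00156). Bag3, an HSP70 cochaperone, rose with 5-FU (0.74 ± 0.20, adjusted p = 0.0136). The promoter motif was in 10 of 17 genes of this list with an entry, against 17% of all genes.

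Among 18 endoplasmic reticulum chaperone and stress genes, which accompany calreticulin, 2 rose and 1 fell with ICB, 1 rose and 1 fell with 5-FU and 3 rose and 1 fell with 5-FU+ICB. The called shares of 3, 2 and 4 of 18 were below the 37.8%, 23% and 40.7% of all genes called. Eif2ak3, which encodes the stress kinase PERK, rose in all 3 comparisons, by 0.79, 0.68 and 0.80 on the log2 scale (SE 0.18 each). Atf4, a transcription factor downstream of PERK, fell with 5-FU (−0.81) and 5-FU+ICB (−0.96). Of 24 tested genes for sensing of danger signals, 18 rose and 2 fell with ICB, 7 rose and 1 fell with 5-FU, 16 rose and 1 fell with 5-FU+ICB and 8 rose and 0 fell with Cisplatin+ICB (medians 1.13, 0.61, 1.21 and 0.94). Of all genes tested, 19%, 9.98% and 21.9% rose in the first 3 of these comparisons and 4.7% rose with Cisplatin+ICB. Without Cisplatin+ICB tumor 1, 17 of the list and 6277 of 17772 genes were DEGs there in either direction. Without PBS tumor 1, 3 or 4, 0 of all genes were DEGs with Cisplatin+ICB, and so 0 of the list. Fpr1 and Fpr2, the formyl peptide receptors that bind annexin A1, rose with ICB, by 4.03 ± 0.88 and 4.24 ± 0.68, in the tumors where Anxa1 itself fell. In PBS tumors Fpr1 was at 0.272 ± 0.168 CPM (SD), near the floor of 3 counts, so the size of its fold is uncertain. Anxa2 fell with ICB by 0.87 ± 0.19. In the same comparison Ptprc rose (2.00 ± 0.44, adjusted p = 0.00231), as did 5 of 5 macrophage markers and 2 of 4 neutrophil markers, among them Csf3r (3.72 ± 0.61, adjusted p = 4.4e-04). The summed neutrophil markers were at 9.11 to 17.9 CPM in PBS tumors and 59.1 to 164 with ICB. The part of these cells in the danger-sensing result was not tested.

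**Figure D5:**
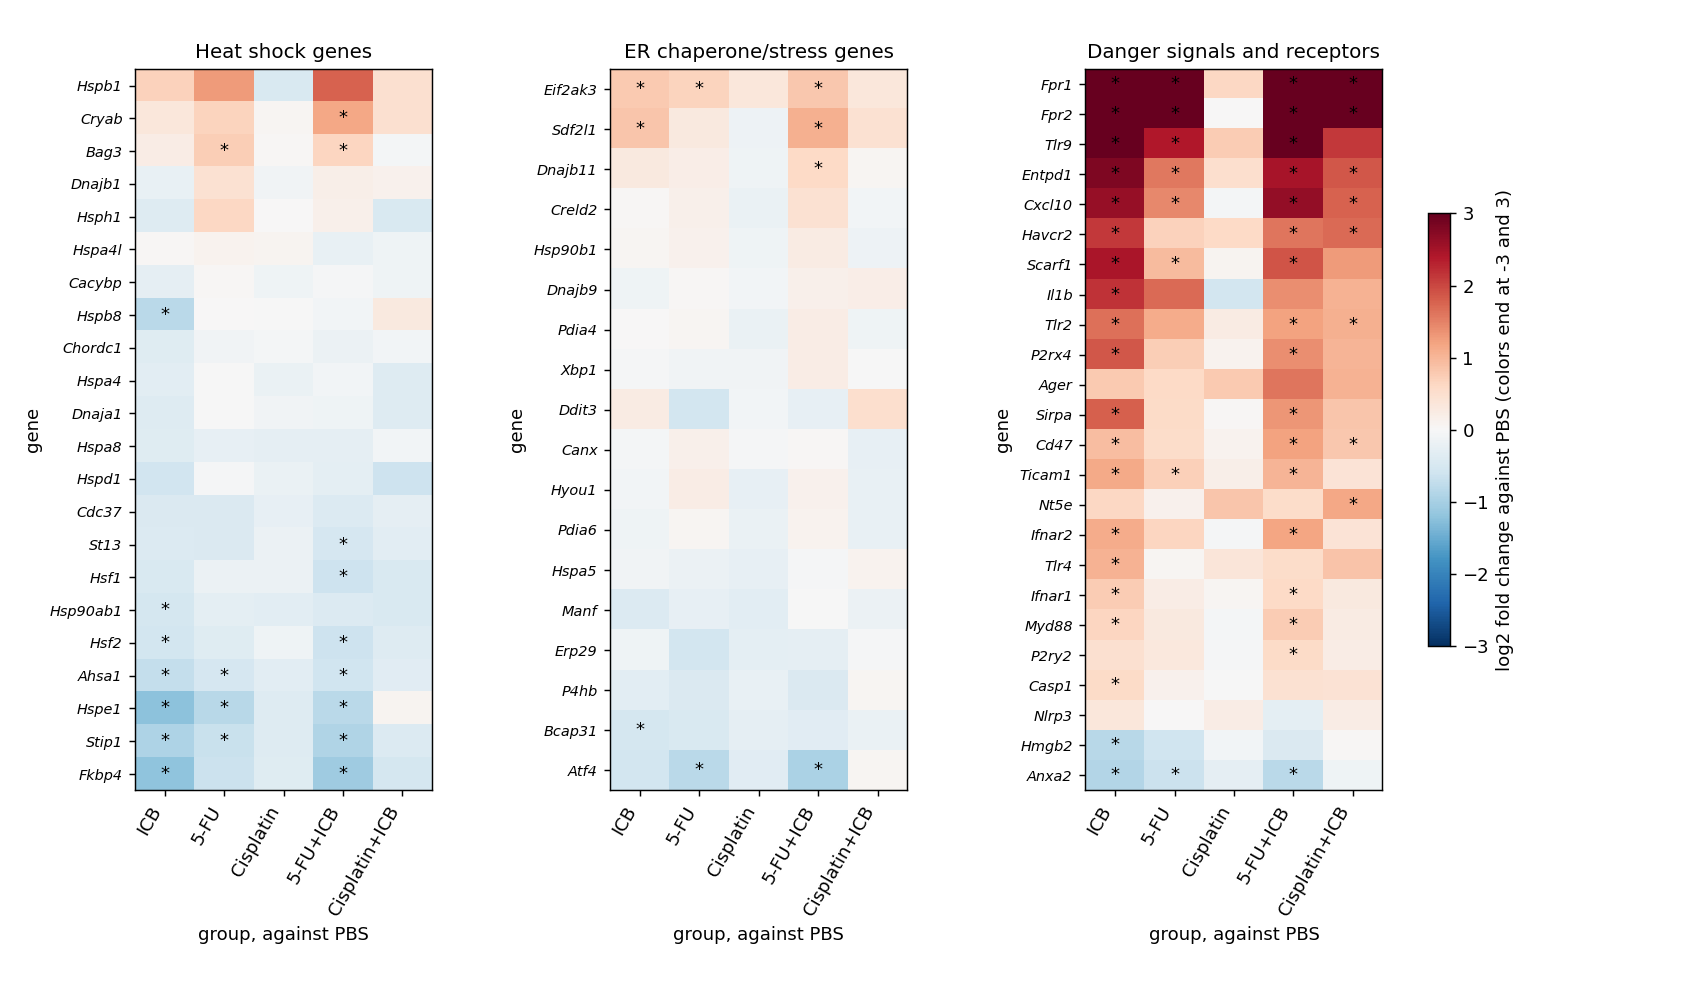
Log2 fold change against PBS (color, ending at −3 and 3) of each gene in 3 of the lists (heat shock, endoplasmic reticulum chaperones, danger signals and receptors) in the 5 treated groups, with asterisks on DEGs. With ICB 18 danger-sensing genes are red with an asterisk, and 7 heat shock genes are blue with an asterisk.

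Over the 28 tumors, the genes whose log2 CPM was most like each member's (Pearson r among 13333 genes, no test, tumors sharing groups and depth) separated the members. Calr was most like Pdia3 (r = 0.927), and Hspa1a was most like Nr4a3 (0.930), Csrnp1 (0.929) and Socs3 (0.926). Hspa1b was most like Jund (0.900). Hmgb1 was most like Adk (0.969), Anxa1 like Wrb (0.962) and Anxa2 (0.962), and Hsp90aa1 like Mcm2 (0.966). Panx1 was most like Cotl1 (0.980), Lrp1 like Rrbp1 (0.973) and P2rx7 like Nacc2 (0.955).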

How the data were processed

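Whole-tumor RNA was sequenced with 100-base single-end reads. The authors quantified transcripts with kallisto (0.46.0, GRCm38) after bcl2fastq (2.20.0.422) and summarised them by gene. The deposited values are estimated counts per gene, of which 23.7% were not whole (tolerance 1e-06), and they were rounded. The 2 deposited matrices (19 tumors of the 5-FU arm, 18 of the cisplatin arm) share 9 PBS and ICB tumors with identical values, counted once. Each matrix was fitted on its own with edgeR 4.0.16 (R 4.3.3, filterByExpr, TMM, quasi-likelihood test, no covariate; 17916 and 17819 genes tested), and the drugs were compared on the joined 28 tumors (18521 genes). CPM were TMM-scaled, with a prior count of 2 on the log2 scale. DESeq2 1.42.0 was an alternative. In simulated data with the design of 5-FU vs PBS (17588 genes, 200 changed by 2 on the log2 scale), 87% of the changed genes were called and 2.25% of calls were false. The changed genes all had a mean count of at least 50. Smaller changes and larger shares of changed genes were not simulated, so these rates do not carry over to the members. 26 gene names had been turned into dates (0.184% of counts) and were tested but not named. The members and lists were chosen with earlier results of these data known. All members are named; from each list, up to 3 DEGs per direction and comparison with the largest absolute log2 fold change and a mean count of at least 50 could be named, and per member the 3 most similar genes by Pearson r. Genes were matched by symbol to GENCODE M21 for coordinates and to RefSeq promoters (9 of 10 members). The authors described the RNA sequencing data as a single experiment. Nothing states whether there were batches within it, so p-values measure the spread between mice. Alternatives were other scalings, filters, tools, fits, a replicate block and leaving out each tumor.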

Additional observations from a re-analysis of the deposited data

Results flagged for a closer look

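Among 60 combinations of gene and group, 9 had a highest or lowest tumor that stood off from the rest of its group by more than Dixon's 95% limit, where chance gives about 1 in 20, or 3. 4 of the 9 were Cisplatin+ICB tumor 1: Hmgb1 at 644 CPM (the next tumor at 298), Anxa1 at 1626 (398), Lrp1 at 52.6 (523) and P2rx7 at 12.0 (45.0). 5-FU tumor 3 stood off in Panx1, at 27.1 CPM (next 12.1), and in P2rx7, at 66.7 CPM (next 44.1). 5-FU+ICB tumor 1 stood off in Hspa1a, at 27.8 CPM (next 8.70). ICB tumor 2 was the lowest of its group in Anxa1, at 296 CPM (next 361), and Cisplatin tumor 4 was the highest in Calr, at 1141 CPM (next 877).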

How the results depend on the processing

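Of 2491 alternative values of the 130 member results (10 genes in 13 comparisons), 2347 kept their direction and side of the threshold. Of the rest, 25 lost and 46 gained a call, and 73 changed sign, 0 of them with a call on either side. None of the 400 alternative values of 60 group levels moved by more than 1 SD. For medians and for means without 1 tumor such a move is not possible, so only the scaling by library size could have shown it. Counts of member DEGs: 5-FU vs PBS (2, with 4115 of 17916 genes) became 4 with DESeq2 (4856 of 19475 genes), 1 with no filter (2469 of 35539), 1 with all 28 tumors in one fit (825 of 18521), 1 with the Hspa1 copies summed (4114 of 17915), and 1 to 5 leaving out a tumor (1436 to 4741 genes), being 1 without PBS tumors 1, 2 or 4 or 5-FU tumors 2, 3 or 5 and 5 without PBS tumor 3. DESeq2 called 1 in the 5-FU and ICB interaction (leaving out a tumor, 0 to 1), 2 in Cisplatin+ICB vs PBS (0 to 5; 5 without Cisplatin+ICB tumor 1, 1 without tumor 3), 1 in Cisplatin+ICB vs Cisplatin (0 to 1), 1 in 5-FU vs Cisplatin (2 with those groups fitted alone) and 3 in 5-FU+ICB vs Cisplatin+ICB (0 to 3). 5-FU+ICB vs 5-FU gave 0 to 1. For these the cause was not tested. Of the signs that turned, 52 were in 20 results of comparisons without PBS, at values from −0.65 (Anxa1, Cisplatin+ICB vs Cisplatin without Cisplatin+ICB tumor 1) to 0.22. The other 21 were against PBS: Hsp90aa1 with 5-FU was 0.030 with DESeq2, 0.036 with its size factors, 0.072 with no filter, 0.053 with at least 10 counts per tumor, 0.0071 with the replicate block and 0.033 fitted alone (−0.15 to 0.053 leaving out a tumor), and Panx1 with Cisplatin was 0.0053 with at least 10 counts (−0.20 to 0.066). Leaving out a tumor gave Calr with 5-FU −0.0050 to 0.24, Hspa1b, Lrp1 and P2rx7 with Cisplatin −0.089 to 0.27, −0.14 to 0.99 and −0.0012 to 0.36, and Anxa1 and Hspa1b with Cisplatin+ICB −0.83 to 0.033 and −0.13 to 0.59. With the replicate block, 4 members were DEGs with ICB, 3 with 5-FU and 6 with 5-FU+ICB. All genes then held 6046, 3339 and 6418 DEGs (6771, 4115 and 7283 without it). In no pair of groups did every correlation between same-numbered tumors exceed 0.1. Their mean was 0.18 (−0.04 for other numbers) between 5-FU and 5-FU+ICB, and −0.15 (0.04) between ICB and 5-FU+ICB. A shared batch could miss that bar, so whether the numbers pair the tumors was not settled. Hsp90aa1 and Hspa1a with ICB and Hspa1b with 5-FU lost their calls under the block, and Hsp90aa1 and Hspa1b also with no filter. With all 28 tumors in 1 fit Hmgb1 and P2rx7 lost their 5-FU+ICB calls (adjusted p = 0.0535 and 0.0668) and Hspa1b lost its 5-FU call. In the cisplatin matrix Anxa1 lost its ICB call (adjusted p = 0.085). The median of all genes in Cisplatin+ICB vs PBS moved from 0.03 to 0.19 with DESeq2.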
